A study of Drosophila melanogaster with 13 samples.

Results

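Hox peaks were followed in 3 windows of chromosome arm 2L of Drosophila melanogaster, drawn for the genes dpp, wg, salm and salr. Peaks were taken from 12 deposited lists of ChIP-Seq peaks when they overlapped 2L from 2425000 to 2490000 (the dpp window, 65 kb), from 7255000 to 7360000 (the wg window, 105 kb, which was drawn to take in neighbouring Wnt genes) or from 11395000 to 11510000 (the salm/salr window, 115 kb). All coordinates are BDGP release 5. This gave 67 peaks of the 93820 in all lists, and of the 16003 on 2L. The windows were given by position, with no measured value in the rule, but they were chosen with earlier results of these data known. Genes were not placed on release 5 coordinates, so no peak was assigned to a gene or called exonic, intronic or intergenic, and no distance to a gene was measured.

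dpp encodes a BMP-type ligand and wg a Wnt ligand, which act as secreted signals that pattern the wing, the gut and many other tissues. salm and salr encode related zinc finger transcription factors that act downstream of Dpp in the wing. Hox proteins are homeodomain transcription factors that give body segments their identity. Control of these genes by the Bithorax complex Hox proteins is well known from other tissues. In the embryonic midgut Ubx activates dpp and Abd-A activates wg, and in the haltere Ubx represses salm and acts on the Dpp and Wg pathways. Exd and Hth are homeodomain cofactors that bind DNA together with Hox proteins, and Hth is needed to bring Exd into the nucleus.

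The tissue here was none of these but Kc167, a female cell line derived from embryos. According to the study, it makes no Hox proteins of its own and no Hth, and its Exd stays in the cytoplasm. Ubx, Abd-A or Abd-B, each fused to GFP, was expressed transiently from a copper-inducible metallothionein promoter, cells with a like level of GFP were sorted, and chromatin was precipitated with an anti-GFP antibody. Experiment 1 held Ubx, Abd-A and Abd-B with 2 replicates each and 2 input samples (36 bp reads). Experiment 2 held Ubx with 1 sample, mutant Ubx, whose DNA-contacting homeodomain residues are changed, with 2, and Ubx+Hth, in which both proteins come from 1 vector, also with 2 (100 bp reads). The 13 samples thus form 6 conditions and 1 input, and the input of Experiment 1 served as the reference for every condition.

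For each condition the authors deposited 1 list of peaks at a q-value of 1e-10 (stringent) and 1 at 1e-2 (relaxed). Each peak carries a score, which is its q-value on the -log10 scale. Replicates were combined before peaks were called, so a value here has no replicate error and no test between conditions was possible. The whole lists held between 1793 peaks (mutant Ubx) and 9681 (Abd-B) at the stringent q-value, and between 8604 (Ubx, Experiment 1) and 12322 (Abd-B) at the relaxed. Read depth cannot be read from the lists and differs between libraries, so a score was placed only by its rank among the peaks of its own list. A missing peak means that the site was not called at this depth and q-value, not that it was unbound.

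Hox peaks were few at all 3 loci, and those of Abd-B were the most numerous. At the stringent q-value the windows together held 7 peaks of Abd-B, 4 of Ubx+Hth, 2 of Ubx in Experiment 1, 2 of Abd-A, 1 of Ubx in Experiment 2 and 0 of mutant Ubx. Of these 16 peaks, 12 lay in the salm/salr window, 3 in the wg window and 1 in the dpp window. At the relaxed q-value the windows held 20 peaks of Abd-B, 10 of Ubx+Hth, 6 of mutant Ubx and 5 each of Ubx in Experiment 1, Abd-A and Ubx in Experiment 2. At both q-values the order of the conditions was that of the lengths of their whole lists, with ties. With only the 1793 best-scoring peaks of every list kept, Abd-B, Abd-A and mutant Ubx had 0 peaks in the windows and each other condition had 1. With 4218 peaks per list Abd-B had 3, beside 2 each for Ubx+Hth, Abd-A and Ubx of Experiment 1. No 2L share was taken at these lengths. The 51 relaxed peaks were spread more evenly, with 24 in the salm/salr window, 18 in the wg window and 9 in the dpp window. Peaks of different lists that overlapped were joined into sites, of which the windows held 24. There were 4 in the dpp window, 10 in the wg window and 10 in the salm/salr window, and they are numbered from the lower coordinate in each (dpp 1 to dpp 4, wg 1 to wg 10 and sal 1 to sal 10).

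**Figure D1:**
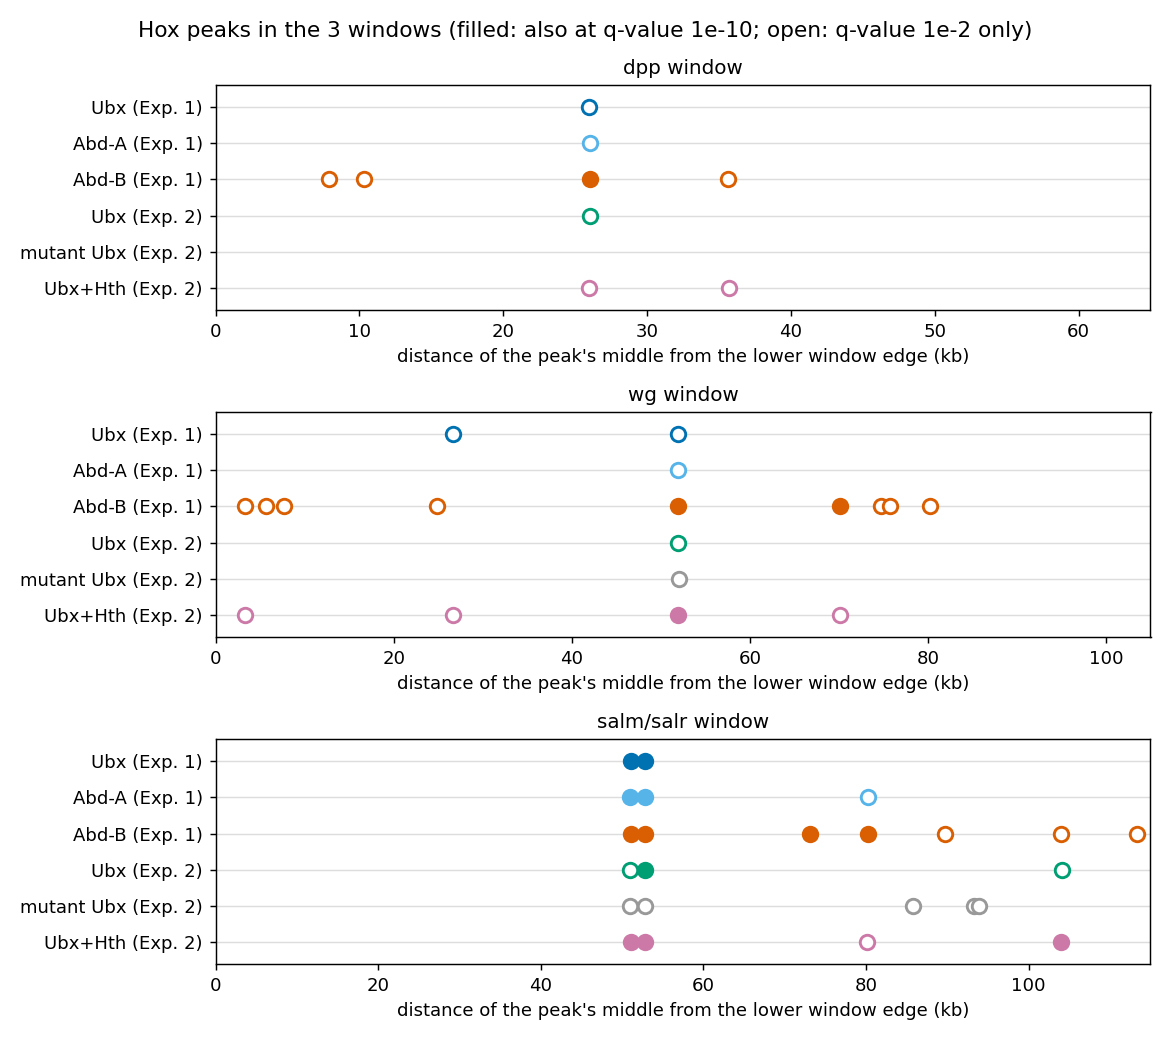
Middle of each relaxed peak by its distance from the lower window edge (kb, x axis) in the 6 conditions (y axis), for the dpp, wg and salm/salr windows. Filled circles also have a stringent peak and open circles do not; circles are larger than the peaks they stand for. Abd-B has the most circles in each window, and mutant Ubx has no filled circle.

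At dpp, the only site with a stringent peak was dpp 3, which extended from 2450765 to 2451245. Abd-B had a stringent peak there of 284 bp (2450832 to 2451115, score 24.7), which ranked 8895 of 9681 in its list, that is at 91.9% of the list from the top. The other wild-type conditions had relaxed peaks at the same place. In the relaxed lists the rank was at 52.8% for Ubx in Experiment 2, 60.1% for Abd-A, 67.1% for Abd-B, 67.4% for Ubx+Hth and 77.5% for Ubx in Experiment 1. So dpp 3 was called with all 5 wild-type Hox conditions, but in the lower part of every list, and the middles of the 5 peaks lay within 95.5 bp of each other. Mutant Ubx had no peak there or anywhere else in the dpp window.

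The other 3 sites of the dpp window had only relaxed peaks. The sites dpp 1 (2432732 to 2433103, score 13.8) and dpp 2 (2435117 to 2435573, score 14) were called with Abd-B alone. The site dpp 4 (2460319 to 2460989) was called with Abd-B (score 18.1) and with Ubx+Hth (score 8). No list held a peak over the next 31.2 kb, from 2460990 to 2492220, a stretch that runs past the upper window edge.

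The sites nearest to the dpp window differed between conditions. Below its lower edge, a site from 2422295 to 2423131 had an Abd-B peak that ranked 136 of 9681 in the stringent list (score 311). Ubx+Hth had a relaxed peak at that site (rank 9972 of 11698), and Ubx, Abd-A and mutant Ubx had none. A neighbouring site from 2423682 to 2424141 had only a relaxed Ubx+Hth peak (score 9.33). Above the upper edge, a site from 2492221 to 2493910 had relaxed peaks in all 6 conditions and 5 stringent peaks, 2 of them of Abd-A and 1 each of Ubx in Experiment 1, Abd-B and Ubx+Hth. The Ubx+Hth peak ranked at 59.6% of its stringent list, and the others were low in theirs, from 89.7% (Abd-A) to 96.3% (Ubx in Experiment 1). By relaxed rank this site was above dpp 3 for Ubx in Experiment 1, Abd-A and Ubx+Hth and below it for Abd-B (67.9% beside 67.1%) and Ubx in Experiment 2 (64.2% beside 52.8%). Moving both edges outward by 10 kb therefore raised the dpp count from 1 to 7 stringent peaks. In the release 6 gene table the neighbours of dpp are CG9886 and CG44139 on the lower side and Slh and oaf on the upper. These flanking sites were not members and were looked at after the counts were known.

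At wg, the leading site was wg 6, from 7306682 to 7307194, and it was called in all 6 conditions. Abd-B had a stringent peak of 371 bp (7306760 to 7307130, score 58.8) at rank 5544 of 9681, or 57.3% of its list. Ubx+Hth had a stringent peak of 288 bp (7306802 to 7307089, score 42) at rank 4665 of 7971, or 58.5%. Relaxed peaks alone were called with Ubx in Experiment 1 (score 21.5), Abd-A (score 22.4), Ubx in Experiment 2 (score 12.8) and mutant Ubx (score 8.5). By rank in the relaxed lists, the 6 conditions lay between 36.2% (Ubx+Hth) and 57.5% (Ubx in Experiment 2), with mutant Ubx at 44.2%. Thus wg 6 held a middle rank in all 6 lists, the mutant list included. The middles of its 6 peaks lay within 121.5 bp of each other.

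A further site of the wg window, wg 7 (7324748 to 7325429), had a stringent peak, of Abd-B (7324862 to 7325322, 461 bp, score 22.8). It ranked 9057 of 9681, at 93.6% of the list, the lowest rank of any stringent peak in the windows. Ubx+Hth had a relaxed peak there (score 15.3), and no other condition had a peak.

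The remaining 8 sites of the wg window had only relaxed peaks, and 6 of them were of Abd-B alone. These 6 were wg 2, wg 3, wg 4, wg 8, wg 9 and wg 10, with scores from 5.73 (wg 9) to 24.7 (wg 2). The site wg 1 (7258139 to 7258401) was shared by Abd-B (score 18.7) and Ubx+Hth (score 8.44). The site wg 5 (7281534 to 7281852) was called with Ubx in Experiment 1 (score 12.6) and with Ubx+Hth (score 13.3). It was not called with Abd-B, and the other sites without Abd-B in any window were called with mutant Ubx alone. No peak of any list was found over 2 long stretches in or near the window, of 24.8 kb from 7281853 to 7306681 and of 40.6 kb from 7335414 to 7376006. In release 6 the genes in order are Wnt4, CG31909, wg, Wnt6 and Wnt10, so the window was drawn around several Wnt ligand genes, and a peak in it cannot be told apart as one of wg or of its neighbours.

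In the salm/salr window, 9 of the 12 stringent peaks lay in a pair of neighbouring sites, sal 1 and sal 2, which were called in all 6 conditions and lay 834 bp apart. They were the only sites of the windows at which Ubx or Abd-A alone, without Hth, had stringent peaks. The site sal 1 extended from 11445466 to 11446641 (1176 bp), the widest of the 24 sites. Its stringent peaks were of Ubx in Experiment 1 (805 bp, score 50.8, rank 1482 of 4830), Abd-A (808 bp, score 47.2, rank 2070 of 5656), Abd-B (870 bp, score 82.8, rank 3884 of 9681) and Ubx+Hth (994 bp, score 80.9, rank 2366 of 7971). As a share of each list these ranks were at 30.7%, 36.6%, 40.1% and 29.7%. Ubx in Experiment 2 had only a relaxed peak at sal 1 (score 10.9, at 64.2% of its list), although Ubx in Experiment 1 had a stringent one. Mutant Ubx had a relaxed peak (score 6.79, 55.0%).

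The site sal 2 extended from 11447476 to 11448101 and held the best rank of any peak in the windows, that of Ubx+Hth. It was also the best site for Ubx in Experiment 2 and for mutant Ubx, whereas sal 1 ranked better for Ubx in Experiment 1 and Abd-A, and sal 4 for Abd-B. The stringent Ubx+Hth peak (363 bp, score 112) was at rank 1442 of 7971, or 18.1%, the only one of the 16 stringent peaks in the top 25% of its list. Ubx in Experiment 2 ranked 1144 of 4218 (27.1%), Abd-B 3596 of 9681 (37.1%), Abd-A 2328 of 5656 (41.2%) and Ubx in Experiment 1 2063 of 4830 (42.7%). Every wild-type condition thus had a stringent peak at sal 2. Mutant Ubx had a relaxed peak of 282 bp with a score of 10.3, at rank 3365 of 9346 or 36.0%, its best rank in the windows. In the relaxed lists the wild-type ranks at sal 2 were between 11.6% (Ubx+Hth) and 27.2% (Abd-B), so that all 5 lay above the mutant rank. The middles of the 6 relaxed peaks lay within 58 bp of each other at sal 2 and within 105.5 bp at sal 1.

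Further along the salm/salr window the conditions parted. The site sal 3 (11467805 to 11468355) was of Abd-B alone, with a stringent peak (11467908 to 11468258, score 33.5) at rank 7991 of 9681, or 82.5%. It was the only site of the windows with a stringent peak in 1 condition and no peak of another condition at either q-value. The site sal 4 (11474954 to 11475467) had the best rank of Abd-B in the windows, 2865 of 9681 or 29.6% (11475036 to 11475420, score 103). Abd-A and Ubx+Hth had only relaxed peaks at sal 4 (scores 8.28 and 13.2, at 83.1% and 71.9% of their lists), and neither Ubx list nor the mutant list had one. The site sal 9 (11498711 to 11499250) instead had its stringent peak with Ubx+Hth (11498792 to 11499056, 265 bp, score 29.7), at rank 6045 of 7971 or 75.8%. Abd-B (score 12.1) and Ubx in Experiment 2 (score 4.01) had relaxed peaks at sal 9.

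The other 5 sites of the salm/salr window were relaxed peaks of a single condition. Mutant Ubx alone was called at sal 5 (score 5.21), sal 7 (score 4.72) and sal 8 (score 2.93), and Abd-B alone at sal 6 (score 7.72) and sal 10 (score 4.65). These were among the lower peaks of their lists, at 68.0% to 97.7% from the top.

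**Figure D2:**
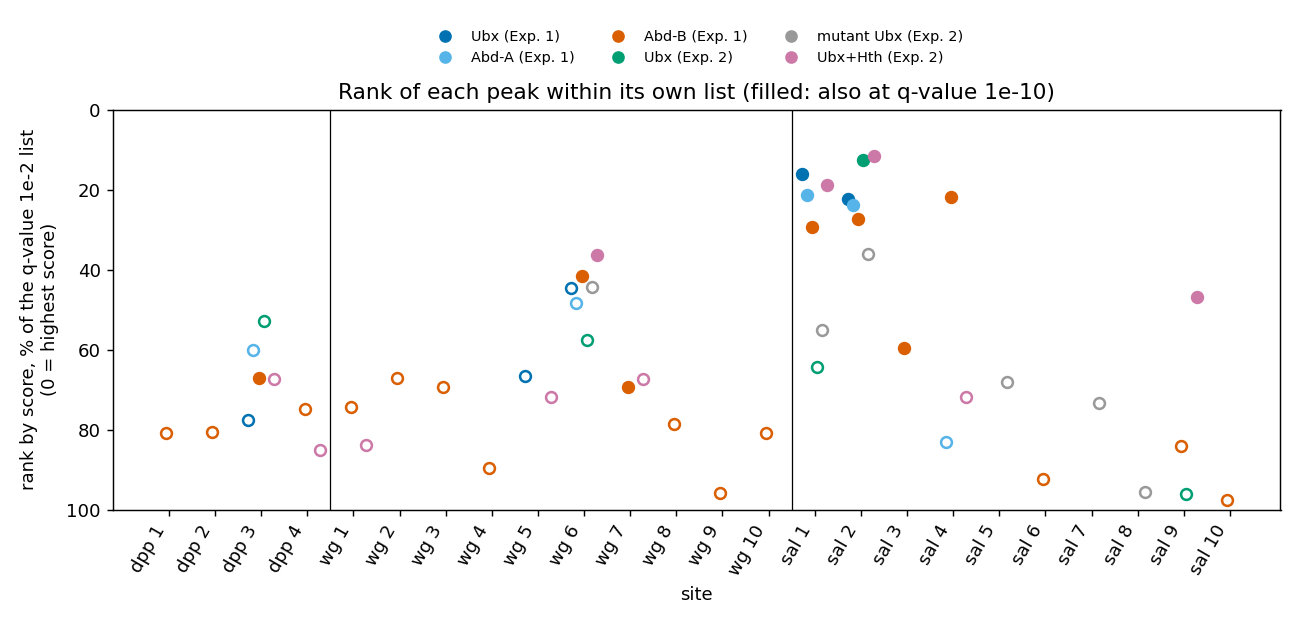
Rank of every relaxed peak as a percent of its own list (y axis, 0 is the highest score) at the 24 sites (x axis), coloured by condition. Filled circles also have a stringent peak. In 5 of the 6 conditions the best rank of the windows is at either sal 1 or sal 2, with Ubx+Hth at 11.6% for sal 2. For Abd-B the best is sal 4 at 21.8%.

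The salm/salr window began with an empty stretch. No list held a peak from 11358926 to 11445465, a length of 86.5 kb, and of the 3051 gaps between sites on 2L only 10 were longer (the median gap was 2783 bp). In the release 6 gene table salr lies on the lower-coordinate side of salm, with 1 gene between them, and whether the window holds salr in release 5 was not checked. The 65 kb below the window were therefore looked at as well, a choice made after the data were seen. They held 3 sites. The one next to the empty stretch (11358401 to 11358925) had a stringent peak of Ubx+Hth (score 34.6, rank 5450 of 7971, or 68.4%). It also had relaxed peaks of Abd-B (score 21.6), Ubx in Experiment 2 (score 7.15) and Abd-A (score 5.45), and none of Ubx in Experiment 1 or of mutant Ubx. The others had 1 relaxed peak each, of Abd-B (score 13.8) and of mutant Ubx (score 3.68).

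On the upper side, a site just outside the salm/salr window (11516134 to 11517793) was stringent in all 6 conditions, mutant Ubx included (score 41.1, rank 280 of 1793 or 15.6%). Ubx in Experiment 1 ranked there at 10.7%, Ubx+Hth at 11.8%, Abd-A at 14.2%, Abd-B at 23.8% and Ubx in Experiment 2 at 25.4%. For these 5 wild-type conditions the rank was better than the best one inside the window. No site within the windows was stringent in all 6 conditions (0 of 24, beside 6.16% of the 3052 sites of 2L). The upper neighbours in release 6 are sala and CG43355.

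Across the 24 sites, Abd-B was present at 20 (83.3%, Wilson 95% interval 64.1 to 93.3), beside 71.3% of the sites of 2L. The share of Abd-B alone was 11 of 24 (45.8%, interval 27.9 to 64.9), where 2L had 19.9%. The intervals in this and the next paragraphs cover the counting of sites or peaks only. Of the 11 sites, 6 were in the wg window, 3 in the salm/salr window and 2 in the dpp window, and only sal 3 among them was stringent. Of all sites with an Abd-B peak, 7 of 20 were stringent in Abd-B here and 1466 of 2175 on 2L. The 2L shares were not matched for score, and the part of score in the share of Abd-B alone was not tested. Sites of Abd-B and Ubx+Hth without any other condition numbered 3 (dpp 4, wg 1 and wg 7, 12.5%, interval 4.34 to 31.0), beside 4.52% on 2L, within the interval. Sites called in 1 condition numbered 14 (58.3%, interval 38.8 to 75.5), beside 45.1% on 2L.

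Each other condition was called at a smaller share of all sites here than on 2L, and for Ubx of Experiment 1 and Abd-A the 2L share lay outside the interval. Ubx in Experiment 1 was called at 5 of 24 sites (20.8%, interval 9.24 to 40.5), where 2L had 41.2%. Abd-A was also at 5 (2L 45.3%), and so was Ubx in Experiment 2 (2L 39.2%, within the interval). Ubx+Hth was at 10 (41.7%, interval 24.5 to 61.2), and its 2L share of 57.7% lay within that interval. All 6 conditions shared 3 sites (12.5%, interval 4.34 to 31.0), namely wg 6, sal 1 and sal 2, and on 2L the share was 23.1%, within the interval. A stringent peak of any condition was found at 8 sites (33.3%, interval 18.0 to 53.3), beside 52.8%, again within it. These shares also fall where sites of Abd-B alone are many. Over the 13 sites that were not of Abd-B alone, a count added after the data were seen, Ubx+Hth was at 10 (76.9%, interval 49.7 to 91.8), beside 72.1% on 2L, so that its difference turned. Over the same sites Ubx of Experiment 1, Abd-A and Ubx of Experiment 2 were at 38.5% each (interval 17.7 to 64.5), beside 51.4%, 56.6% and 48.9%, and mutant Ubx was at 46.2% (interval 23.2 to 70.9) beside 52.9%. All of these 2L shares lay within the intervals.

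The comparison of Abd-B with Ubx and Abd-A rested on few peaks. Peaks of a pair of lists were taken as partners at a reciprocal overlap of 5% or more. Of the 7 stringent Abd-B peaks, 2 had a stringent partner in Ubx of Experiment 1 (28.6%, interval 8.22 to 64.1), beside 40.4% on 2L. These were the peaks at sal 1 and sal 2. With partners sought in the relaxed lists, 4 of 7 had one of Ubx (2L 72.2%), 5 of 7 one of Abd-A (2L 77.5%) and 6 of 7 one of Ubx+Hth (2L 80.0%). For these stringent peaks the background shares lay within the interval of the windows. Among the 20 relaxed Abd-B peaks they did not for Ubx and Abd-A, but did for Ubx+Hth. Of these 20, 4 had a relaxed Ubx partner (20.0%, interval 8.07 to 41.6), beside 55.3% on 2L, and 5 had an Abd-A partner (25.0%, interval 11.2 to 46.9), beside 61.6%. A relaxed Ubx+Hth partner was found for 9 (45.0%, interval 25.8 to 65.8), beside 65.7% on 2L. The 2L peaks were not matched for score, and the part of score in these differences was not tested. Both stringent Ubx peaks of Experiment 1 had a stringent Abd-A partner (2 of 2, 2L 93.9%). At the relaxed q-value Ubx and Abd-A were called at the same 4 sites, and in addition Ubx at wg 5 and Abd-A at sal 4. The share with a partner was thus 80.0% both ways (interval 37.6 to 96.4), beside 93.1% of Ubx peaks and 83.3% of Abd-A peaks on 2L.

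The reads of Ubx+Hth were, by the paper's counts, several times as many as those of Ubx in Experiment 2. With Hth, Ubx had 4 stringent peaks in the windows against 1 without it in Experiment 2, and the part of depth in this was not tested. That 1 peak, at sal 2, was shared, so 1 of the 4 Ubx+Hth peaks had a stringent Ubx partner (25.0%, interval 4.56 to 69.9, 2L 46.1%). The other 3, at wg 6, sal 1 and sal 9, had a relaxed Ubx peak, so that 4 of 4 had a partner there (2L 84.3%). At the relaxed q-value Ubx+Hth had 5 sites without Ubx of Experiment 2, namely dpp 4, wg 1, wg 5, wg 7 and sal 4. Of its 10 relaxed peaks 5 had a Ubx partner (interval of the share 23.7 to 76.3%), and the 61.6% of 2L lay within that interval. Abd-B was also called at 4 of these 5, wg 5 being the exception.

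Mutant Ubx had no stringent peak at any of the 24 sites (interval 0 to 13.8%), beside 6.85% of the sites of 2L, within the interval. In the relaxed list it was called at 6 sites (25.0%, interval 12.0 to 44.9), where 2L had 42.4%, within the interval. It was alone at 3 of them (12.5%), beside 14.8% on 2L. The 3 sites it shared were those of all 6 conditions. By the paper's counts, the reads of mutant Ubx were also several times as many as those of Ubx in Experiment 2. The part of depth in the calls of these lists was not tested. The single stringent Ubx peak of Experiment 2 had no stringent mutant partner (0 of 1, 2L 34.1%), and of the 5 relaxed Ubx peaks 3 had a relaxed mutant partner (2L 58.1%). At dpp 3 and sal 9 Ubx of Experiment 2 was called and mutant Ubx was not. Counts of this size leave wide intervals, and a difference from 2L in the share of Ubx peaks with a mutant partner was not detectable.

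Between the experiments, 4 of the 5 Ubx sites of each were common (dpp 3, wg 6, sal 1 and sal 2). This share of 80.0% was close to that of 2L, where 80.4% of the relaxed Ubx peaks of Experiment 1 had a partner in Experiment 2 and 85.2% the reverse. The site wg 5 was called only in Experiment 1 and sal 9 only in Experiment 2, and sal 1 was stringent only in Experiment 1. The experiments differ in read length, sequencer, read depth, the number of Ubx replicates and the culture, and only Experiment 1 had an input of its own. The parts of these in the differences cannot be told apart.

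Peak density in all 3 windows was below that of 2L. In the stringent lists summed, 2L held 24.9 peaks per 100 kb, the salm/salr window 10.4, the wg window 2.86 and the dpp window 1.54, that is 0.419, 0.115 and 0.0618 of the density of 2L. In the relaxed lists, where 2L held 44.7, the densities were 20.9, 17.1 and 13.8. Since overlapping peaks of several lists repeat the same sites, single lists were also compared. The window was below 2L in 18 of 18 pairs of list and window at the stringent q-value and in 18 of 18 at the relaxed. The exact 95% counting interval lay wholly below 2L in 4 and in 5 of these, so most single pairs could not be distinguished from 2L. That interval assumes independent peaks and leaves out the spread along the arm, so it does not show the remaining pairs to be unusual. Among the 4 was Ubx+Hth with 0 stringent peaks in the dpp window, and 71 of 353 stretches of 2L of that length also had none. Abd-B came nearest to the background, with 8.57 relaxed peaks per 100 kb in the wg window (interval 3.92 to 16.2) beside 9.68 on 2L, although its stringent density there was 1.9 beside 7.41.

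**Figure D3:**
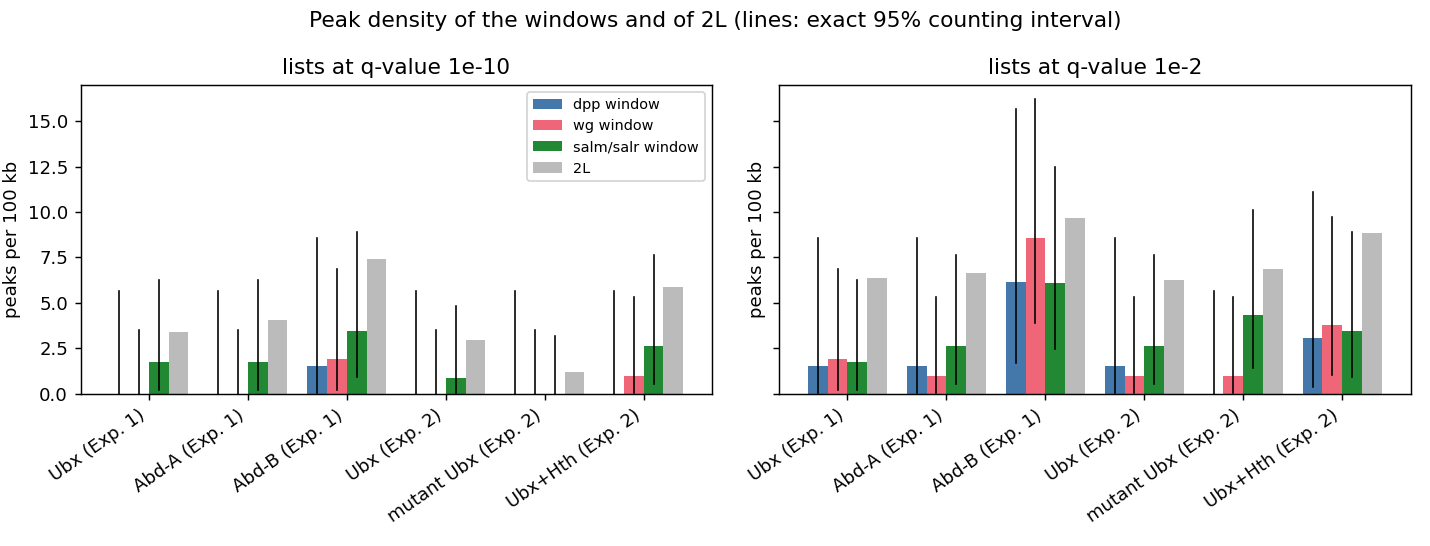
Peaks per 100 kb (y axis) in the dpp, wg and salm/salr windows and on the whole of 2L (grey) for the 6 conditions, at the stringent (left) and relaxed (right) q-value. Black lines are exact 95% counting intervals, which cover neither replicate error nor the spread of density along the arm. Every window bar is below the grey bar of its condition, and the wg window of Abd-B in the relaxed list (8.57 beside 9.68) is among the nearest.

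Counts per stretch varied widely along the arm. When 2L was divided into consecutive stretches as long as each window, the median stretch held 12 stringent peaks of the 6 lists at the length of the dpp window, 22 at that of the wg window and 23 at that of the salm/salr window. Of 353 stretches of 65 kb, 66 held as few as the 1 peak of the dpp window or fewer, and 307 held as many or more. Of 219 stretches of 105 kb, 33 held no more than the 3 peaks of the wg window, and of 200 stretches of 115 kb, 57 held no more than the 12 of the salm/salr window. Each window was thus in the lower part of the arm.

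**Figure D4:**
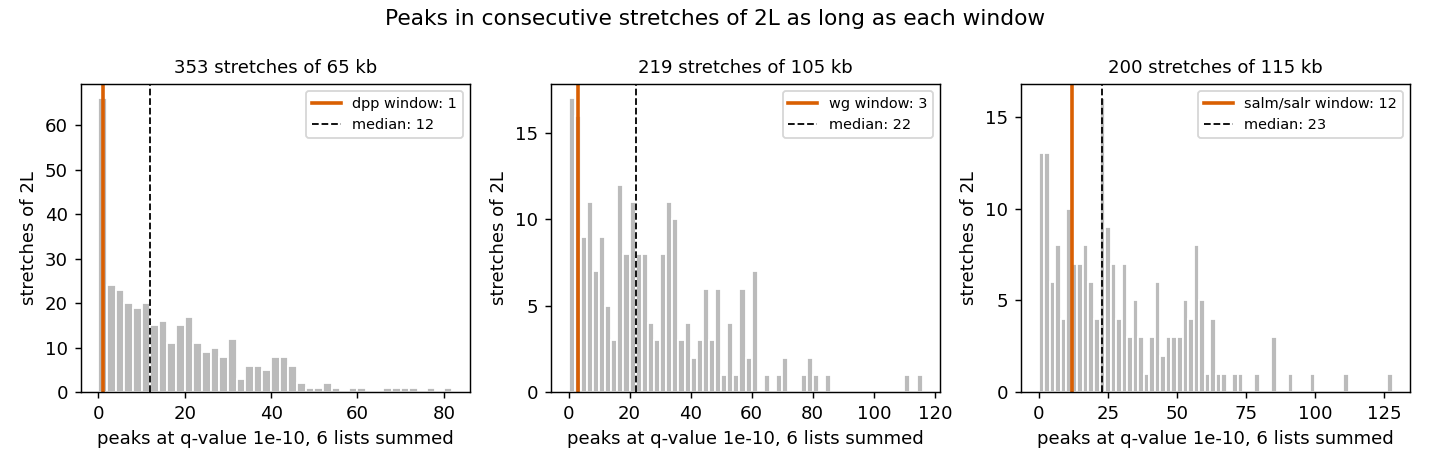
Number of stretches of 2L (y axis) by their stringent peaks summed over 6 lists (x axis), for stretches as long as the dpp, wg and salm/salr windows. The orange line is the window (1, 3 and 12 peaks) and the dashed line the median stretch (12, 22 and 23), and each window is left of its median.

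The stringent peaks of the windows were of middling rank and, by the median, narrow for their lists. Their median rank was at 40.6% of the list (range 18.1 to 93.6, SD 24.2 over the 16 peaks), with 6 in the lower 50%, while by width the median rank was at 73.3%. Since peaks of several lists repeat a site, the 16 are not independent. Those 6 were all the stringent peaks of the dpp and wg windows (57.3% to 93.6%) and those at sal 3 and sal 9 (82.5% and 75.8%). Several relaxed peaks had a score that would pass the stringent q-value but no stringent counterpart. There were 21 of these among the 37 relaxed window peaks with a score of at least 10, beside 31.1% on 2L. For Abd-B there were 9 of 16, beside 22.2% of its peaks on 2L, the wg 2 peak with a score of 24.7 among them. In each condition the narrowest peak was equally wide in both lists (from 173 bp for mutant Ubx to 251 bp for Abd-B). A site listed here as relaxed only is therefore not always one of low score, and the part of peak width in this was not tested.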

How the data were processed

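ChIP-Seq of GFP-tagged Hox proteins was carried out in 13 samples of Kc167 cells (6 conditions and an input). According to the methods and the submitters' processing notes, the authors mapped paired reads to BDGP release 5 with Bowtie 1.0.1, kept uniquely mapped reads, handled them with SAMtools 0.1.19, combined replicates, filtered out with bedtools 2.19.1 the reads at the exons of Hox and Hth genes carried by the vectors and called peaks with MACS2 2.1.0.20140616 against the input of Experiment 1. The deposited score is the -log10 of the q-value, and the lowest scores were close to 10 in the stringent and to 2 in the relaxed lists. Removal of those reads concerned other loci. All conditions share 1 input, so that its local signal bears on every list alike, and unequal depth between libraries can change which weak sites are called. Depth was not used here. Counting intervals assume independent peaks.

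From the lists, peaks overlapping a window by at least 1 bp were counted, peaks of the 12 lists that overlapped were joined into sites, and ranks were taken within a list, with tied scores sharing the best rank. Partners needed 5% reciprocal overlap, as in the study. Densities were taken from position 1 to the end of the last peak on 2L. Wilson and exact intervals are at 95%. Counting was done in python 3.11.15 with numpy 2.4.6, scipy 1.17.1 and matplotlib 3.10.9, tested on simulated peaks with known overlaps and, on these, against bedtools 2.31.1. No test between conditions was made, as there is 1 list per condition. Alternatives concerned the q-value, window edges, list length, minimum overlap, joining of peaks, background region and measure of rank.

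The rule for peaks given in full was the best-ranked site of each window, sites stringent in all 6 conditions, sites stringent in 1 condition with no peak of another, and sites with a stringent mutant peak. Others with a stringent peak could be named, and sites with relaxed peaks only are given so that every member is accounted for. The windows, lists and rules were chosen with earlier results of these data known. Gene order and names come from a RefSeq table of release 6, in which 4 of 4 members were matched. Its coordinates are not given, and sequences were not used here.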

Additional observations from a re-analysis of the deposited data

How the results depend on the processing

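Of 143 alternative values of 26 results, 109 kept within the set limits and 34 moved. The limits were wide for results that rest on few peaks. With both lists at 1e-2, the share of Ubx peaks of Experiment 2 with a mutant partner went from 0 of 1 to 3 of 5. This change was counted as kept, and so was the rise of the dpp density ratio at that q-value. The 109 are therefore no measure of how stable the results are. At a q-value of 1e-2 the counts became 9 (dpp), 18 (wg) and 24 (salm/salr), and by condition 5 (Ubx, Experiment 1), 5 (Abd-A), 20 (Abd-B), 5 (Ubx, Experiment 2), 6 (mutant Ubx) and 10 (Ubx+Hth), while the wg density ratio rose to 0.384. With edges 10 kb further out, the counts were 7 for dpp, 4 for Ubx of Experiment 1, 5 for Abd-A, 2 for Ubx of Experiment 2 and 1 for mutant Ubx, from the flanking sites described above. With lists shortened to the 1793 peaks of mutant Ubx, 0 peaks were left at dpp, 0 at wg and 3 at salm/salr, of which 1 was of Ubx in Experiment 1, 0 of Abd-A, 0 of Abd-B and 1 of Ubx+Hth. With 4218 peaks per list, the dpp and wg windows held 0 and 0, Abd-B 3 and Ubx+Hth 2. At the length of the shorter list, the share of Abd-B peaks with a Ubx partner was 66.7%. That share was of few peaks, and no 2L share was taken at that length. With partners sought in the relaxed list, 4 of 4 peaks of Ubx+Hth had one of Ubx of Experiment 2 (100%, 2L 84.3%). For Ubx of Experiment 2 with mutant Ubx it was 1 of 1 (100%, 2L 85.0%). For Ubx of Experiment 1 with that of Experiment 2 it was 2 of 2 (100%, 2L 95.7%). Without the Abd-B lists 13 sites were left, and by width the median rank was at 73.3%. Over sites not of Abd-B alone, added after seeing the data, the share with Ubx+Hth was 76.9% and with mutant Ubx 46.2%. The 65 kb below the salm/salr window, also added later, changed no count by over 1.5 times. The ratios of density to 2L were below 1 under every alternative tried for them. These concerned the background region, the share of bases covered and the q-value. Window edges, list length and joining of peaks were not varied for density.

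No paired analysis was possible because each list was called on combined replicates, and leaving out a replicate was likewise not possible. At 1793 peaks per list Abd-B, Abd-A and mutant Ubx each had 0, and no cause was tested. Windows with so few peaks limit every share to a wide interval.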

Other observations

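Many scores in the windows were shared with other peaks of the same list, so that ranks at low scores are coarse. Of the 51 relaxed window peaks, 42 had a score that another peak of their list also had, among them 15 of the 20 of Abd-B. The mutant Ubx score of 4.72 at sal 7 was found in 310 peaks of its list. In contrast, the peaks of Ubx+Hth (score 112) and Abd-B (score 88) at sal 2 and the Abd-B peak at sal 3 (score 33.5) had scores of their own.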
